A study of Mus musculus with 4 samples.

Results

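Nonsense-mediated decay (NMD) factors are the proteins that recognise and destroy mRNAs on which translation stops too early. Isoform entries were assigned to 7 of these genes (Upf1, Upf2, Upf3a, Upf3b, Smg1, Smg5 and Smg6) by the mouse gene identifier that each entry carries, matched to its symbol in the GENCODE M21 annotation. Of 14949 genes with at least 1 entry, 6 were members, and 23 of 46637 gene-naming isoform entries belonged to them. No entry paired an isoform with the identifier of Upf1, so no gene sum was computed for it, and reads at the edge of its locus are described separately.

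In NMD, UPF1, an RNA helicase, is recruited to a terminating ribosome and is bridged through the adaptor UPF2 to UPF3A or UPF3B, which bind the exon junction complex deposited upstream of spliced exon junctions. SMG1, a kinase, phosphorylates UPF1. The phosphorylated UPF1 recruits SMG6, an endonuclease that cuts the mRNA, and SMG5, which helps to bring in deadenylation and decapping enzymes. An intron left in an mRNA usually carries a stop codon, so NMD removes many intron-containing transcripts that reach the cytoplasm. Several mRNAs for NMD factors are themselves targets of the pathway.

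Long-read Nanopore cDNA-PCR libraries were made from primary mouse neural stem cells, grown as neurospheres from E12.5 neocortex, to ask whether Tut1, the enzyme that adds a uridine tail to U6 snRNA, is needed for mRNA splicing. The control (Tut1f/f) carried floxed Tut1 alleles and received lipid nanoparticles (LNP) without Cre mRNA. The other cells received LNP with Cre mRNA and had floxed Tut1 (Tut1f/f;Cre), floxed Trp53, the gene for p53 (Trp53f/f;Cre), or both (Tut1f/f;Trp53f/f;Cre), and the series gives 3 days for the treatment. Each group was 1 library, so no value has replicate error, every cell carried floxed alleles, and Cre mRNA reached whole cultures rather than 1 cell type.

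The libraries held 3936827 to 5125888 reads, of which 2863392 to 4244467 fell on named genes. The Tut1f/f library stood apart: 17.2% of its reads named no gene against 27.3 to 30.2% in the others, and 18.7% of its gene reads fell on the ribosomal RNA gene CT010467.1 against 5.46 to 9.75%. Values of the 4 libraries are given in the order Tut1f/f, Tut1f/f;Cre, Trp53f/f;Cre, then Tut1f/f;Trp53f/f;Cre (the double-floxed library), and ratios to Tut1f/f in the order of the last 3. Tut1 had 37, 11, 14 and 27 reads, so Tut1 reads went against the labels of the libraries labelled Trp53f/f;Cre (low) and double-floxed (not low). A gene sum also counts Tut1 transcripts that lack the deleted exon. Trp53 had 175, 67, 10 and 19 reads. All 8 neural stem cell markers were detected in every library (summed level 11757 to 13097 CPM, of which Fabp7 was 9568 to 11193 CPM), all 4 microglial and all 4 endothelial markers were at 0, and the defining markers Rbfox3, Gfap and Mog were at 0. Summed levels were 74.9 to 88.4 CPM for 6 neuronal, 70.2 to 90.7 CPM for 4 oligodendrocyte, 26.0 to 28.6 CPM for 4 fibroblast and 7.02 to 49.1 CPM for 4 astrocyte markers. The astrocyte sum was highest in Tut1f/f. Single stem cell markers also separated Tut1f/f from the 3 libraries with Cre mRNA. Hes1 stood at 148 CPM in Tut1f/f and 445 to 503 CPM in the others, Sox9 at 36.6 against 66.3 to 91.6, Nes at 138 against 196 to 308, Sox2 at 210 against 266 to 395 and Pax6 at 8.72 against 16.3 to 19.9 CPM. Vim ran the other way, at 1253 against 612 to 763 CPM, and Slc1a3 stood at 286 against 296 to 327 CPM. The part of these differences in any result was not tested.

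Of the 7 annotated isoforms that took member reads, 4 are annotated as retaining an intron. The sequences at the edges of these introns are shown to describe the annotated isoforms, and no read count depends on them. Smg5-203 and Upf3a-202 end inside the intron, so no annotated exon junction follows the stop codons printed for them. The table gives the isoform to which each read was assigned and not the ends of the read. The sequences are from GENCODE M21 transcripts (build GRCm38), 5′ to 3′ on the strand of the gene. In Smg5 (chromosome 3, plus strand), Smg5-203 ends inside intron 12, whose 1381 bases lie at chr3:88351582-88352962. The annotated isoform holds 1148 of them, and the reading frame of the spliced Smg5-201 meets its first stop codon 251 bases into the intron. The first sequence below covers chr3:88351552-88351832 and the second joins the flanks of the same intron between 88351552 and 88352992.
Smg5-203, exon 12 into intron 12 (capitals mark the first intron bases and the first in-frame stop codon): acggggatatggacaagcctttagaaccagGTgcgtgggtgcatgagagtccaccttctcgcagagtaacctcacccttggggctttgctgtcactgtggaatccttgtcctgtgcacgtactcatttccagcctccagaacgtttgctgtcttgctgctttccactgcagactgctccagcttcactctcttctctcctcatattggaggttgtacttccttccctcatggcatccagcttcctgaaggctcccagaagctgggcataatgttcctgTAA
Smg5-201, exon 12 joined to exon 13 (capitals mark the bases on either side of the junction): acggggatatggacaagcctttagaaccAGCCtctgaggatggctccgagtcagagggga

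Upf3a-202 (chromosome 8, plus strand) keeps 784 of the 1111 bases of intron 2 at chr8:13786254-13787364. Read in the frame of Upf3a-201, the intron opens with a stop codon that ends at its base 4. The retained stretch covers chr8:13786224-13786257, and the spliced one runs from 13786224 to 13787394 with the intron removed.
Upf3a-202, exon 2 into intron 2 (capitals mark the first intron bases and the stop codon, which overlap): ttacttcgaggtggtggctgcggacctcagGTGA
Upf3a-201, exon 2 joined to exon 3 (capitals mark the bases on either side of the junction): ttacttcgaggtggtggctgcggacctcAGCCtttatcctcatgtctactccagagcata

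The 2 retained-intron isoforms of Smg1 (chromosome 7, minus strand) are single unspliced stretches within a gene whose full isoform, Smg1-201, has 63 exons and 15557 bases. Smg1-210 covers exon 14 (131 bases) with 1376 intron bases before it and 27 after it. Smg1-208 covers exon 42 (249 bases) with 1022 intron bases before it and 189 after it. The 4 exon edges lie at chr7:118190886-118190955, chr7:118190758-118190814, chr7:118158213-118158282 and chr7:118157967-118158023 in the order printed.
Smg1-210, intron 13 into exon 14 (capitals mark the last intron bases): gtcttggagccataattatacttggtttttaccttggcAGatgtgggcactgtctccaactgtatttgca
Smg1-210, exon 14 into intron 14 (capitals mark the first intron bases): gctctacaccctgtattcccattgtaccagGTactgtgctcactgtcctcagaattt
Smg1-208, intron 41 into exon 42 (capitals mark the last intron bases): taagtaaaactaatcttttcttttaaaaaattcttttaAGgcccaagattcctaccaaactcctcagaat
Smg1-208, exon 42 into intron 42 (capitals mark the first intron bases): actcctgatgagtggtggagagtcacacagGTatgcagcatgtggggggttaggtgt

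**Figure D1:**
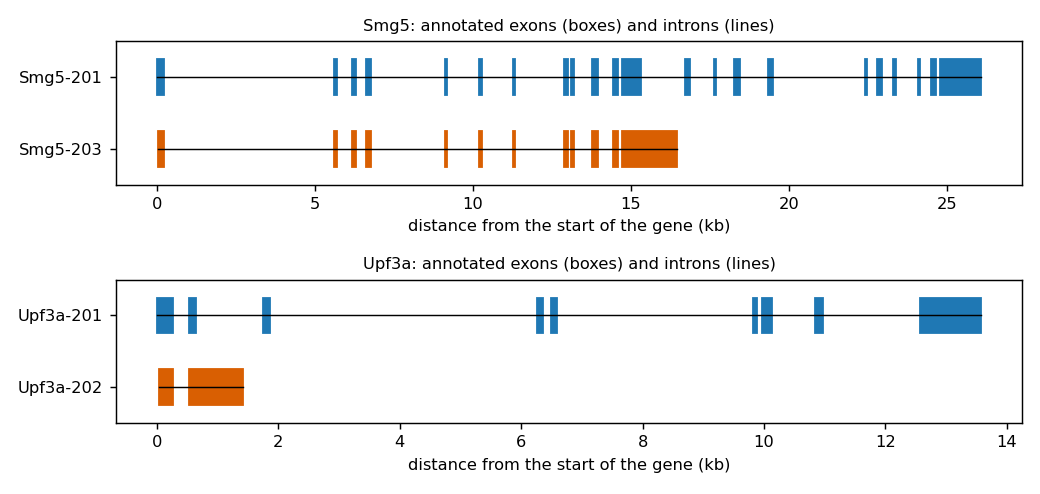
Annotated exons (boxes) and introns (lines) of Smg5-201 and Smg5-203 (upper panel) and of Upf3a-201 and Upf3a-202 (lower panel), plotted as distance from the start of the gene in kb. Smg5-203 ends inside intron 12 with 12 of the 22 exons of Smg5-201 begun, and Upf3a-202 ends inside intron 2 with 2 of the 9 exons of Upf3a-201 begun.

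Levels are given as CPM, reads scaled by edgeR's TMM factors per 1e6 gene reads. With 1 library per group, each ratio of 2 libraries carries an exact 95% interval for counting error only, and a gene was called different when the ratio was at least 2-fold and its interval excluded no change. Reads carry no molecular identifiers, so intervals and floors cover counting error and not the spread between cultures. In a bulk culture, fewer cells of a type and less RNA per cell cannot be told apart. The 23 member isoforms held 315, 300, 302 and 268 reads, so single genes rested on 18 to 85 reads per library.

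Smg5 and Smg1, the adaptor and the kinase of UPF1, had more reads in each of the 3 libraries that received Cre mRNA than in Tut1f/f. They were the 2 of 6 measured members called different in Tut1f/f;Cre against Tut1f/f, where the rule called 26% of 9882 tested genes. The same 2 of 6 were called in Trp53f/f;Cre (27.5% of all genes) and in the double-floxed library (20% of all genes) against Tut1f/f. Higher calls alone made up 13.1, 13.2 and 10.1% of all genes. These 3 comparisons share the Tut1f/f library, and the higher levels were found with and without a floxed Tut1 label. Of the stem cell markers, Hes1, Sox9, Nes, Sox2, Pax6 and, by a small margin, Slc1a3 were also lowest in Tut1f/f, while Vim was highest there. The summed stem cell marker level was not lowest in Tut1f/f, at 11899 CPM against 11757 CPM in Trp53f/f;Cre. The part of these differences in the Smg1 and Smg5 levels was not tested.

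For Smg5, 19, 42, 38 and 58 reads were counted, which are levels of 4.73, 14.0, 11.1 and 19.3 CPM. The Tut1f/f library was lowest and the double-floxed library highest, and among the 3 libraries with Cre mRNA neighbours in this order did not differ beyond counting error. Against Tut1f/f, Smg5 was 2.95-fold higher in Tut1f/f;Cre (95% interval 1.68 to 5.37), 2.35-fold in Trp53f/f;Cre (1.32 to 4.32) and 4.09-fold in the double-floxed library (2.40 to 7.26). Without the Tut1f/f library, Smg5 was 1.74-fold higher in the double-floxed library than in Trp53f/f;Cre (1.14 to 2.69), below the 2-fold threshold. Its ratio to Tut1f/f;Cre was 1.39 (0.915 to 2.11), an interval that includes no change.

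For Smg1, 18, 38, 36 and 31 reads were counted, or 4.48, 12.6, 10.5 and 10.3 CPM. The 3 libraries with Cre mRNA were close to each other and Tut1f/f stood below them. Smg1 was 2.82-fold higher in Tut1f/f;Cre (1.57 to 5.24), 2.35-fold in Trp53f/f;Cre (1.30 to 4.40) and 2.30-fold in the double-floxed library (1.25 to 4.38) than in Tut1f/f. The double-floxed library had 0.981 times the Smg1 level of Trp53f/f;Cre (0.587 to 1.63) and 0.818 times that of Tut1f/f;Cre (0.492 to 1.35). With read-named isoforms left out, Smg1 was no longer called in Trp53f/f;Cre against Tut1f/f, at 1.56-fold (0.517 to 4.93).

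Smg6, the endonuclease, was lowest in the double-floxed library. Its reads were 85, 57, 67 and 33, at 21.2, 18.9, 19.6 and 11.0 CPM. The first 3 libraries did not differ beyond counting error. The double-floxed library had 0.520 times the Smg6 level of Tut1f/f (0.337 to 0.785), 0.561 times that of Trp53f/f;Cre (0.358 to 0.863) and 0.581 times that of Tut1f/f;Cre (0.366 to 0.907). Each interval excluded no change and none of these ratios reached 2-fold. With no fold required, the interval excluded no change for 2 of 6 members in Tut1f/f;Cre (55.4% of all genes), 4 in Trp53f/f;Cre (57.6%) and 4 in the double-floxed library (49%) against Tut1f/f, and in the double-floxed library for 2 against Trp53f/f;Cre (33.1%) and 1 against Tut1f/f;Cre (24.7%). At a threshold of 1.5-fold the member counts were the same (2, 4, 4, 2 and 1), beside 42.3, 44.3, 34.9, 18.5 and 11.8% of all genes.

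**Figure D2:**
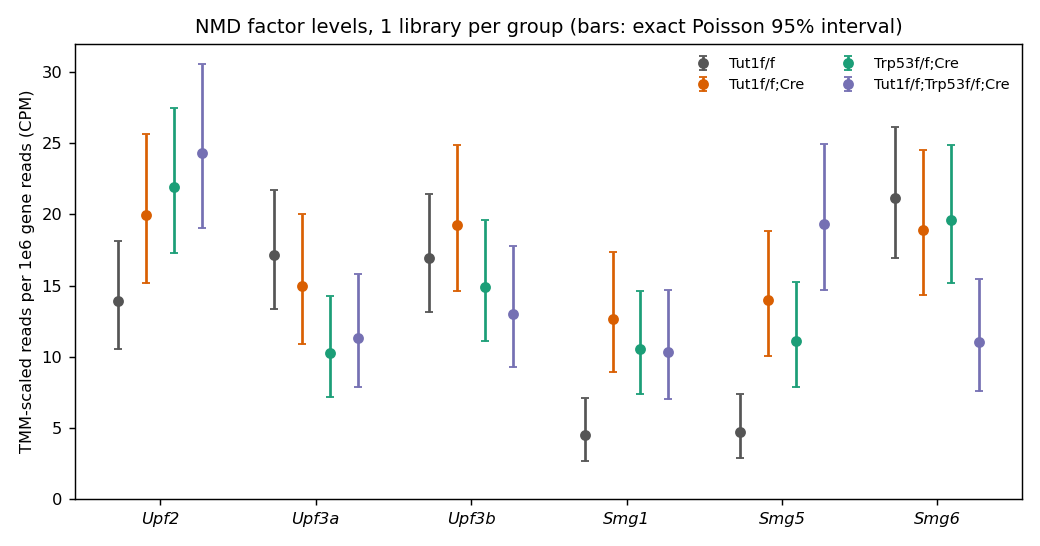
TMM-scaled reads per 1e6 gene reads (CPM, vertical axis) of the 6 measured members in the 4 libraries, with 1 point per library and exact Poisson 95% intervals as bars. Smg1 at 4.48 CPM and Smg5 at 4.73 CPM in Tut1f/f sit below the other 3 libraries, and Smg6 at 11.0 CPM in the double-floxed library sits below the rest.

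Among the UPF genes, no level differed 2-fold between libraries. Upf2, the adaptor, was represented by 1 isoform that was named after a read. It held 56, 60, 75 and 73 reads (13.9, 19.9, 22.0 and 24.3 CPM), lowest in Tut1f/f. Against Tut1f/f, the Upf2 ratios were 1.43 (0.976 to 2.10), 1.57 (1.10 to 2.27) and 1.74 (1.21 to 2.52), while neighbours in the order of levels did not differ beyond counting error. Among 5584 genes with a mean of at least 50 reads, the patterns nearest to that of Upf2, by Euclidean distance of centred log2(CPM + 0.5) over the 4 libraries, were those of Fyn (distance 0.0436), Bora (0.0493) and Usp37 (0.0562).

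Upf3a and Upf3b, the paralogues that link UPF2 to the exon junction complex, both had their fewest reads in libraries labelled with floxed Trp53. Upf3a had 69, 45, 35 and 34 reads (17.2, 15.0, 10.2 and 11.3 CPM), with the control highest. Compared with Tut1f/f, the level of Upf3a was 0.870 (0.584 to 1.29), 0.596 (0.385 to 0.908) and 0.659 (0.424 to 1.01) times as high. Upf3b had 68, 58, 51 and 39 reads (16.9, 19.3, 14.9 and 13.0 CPM), and every one of its 5 ratios had an interval that included no change. With read-named isoforms left out, Upf3b was called lower in 3 pairs, at 0.303 times Tut1f/f in Trp53f/f;Cre (0.0738 to 0.940), and in the double-floxed library at 0.262 times Tut1f/f (0.0489 to 0.915) and 0.233 times Tut1f/f;Cre (0.0426 to 0.847). Over all genes 26.6, 18.6 and 4.73% were called in these pairs at that setting. Upf3b lies on the X chromosome. Xist, the RNA that coats the inactive X chromosome, had 0, 44, 49 and 0 reads, and the part of X chromosome number in the Upf3b level was not tested.

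**Figure D3:**
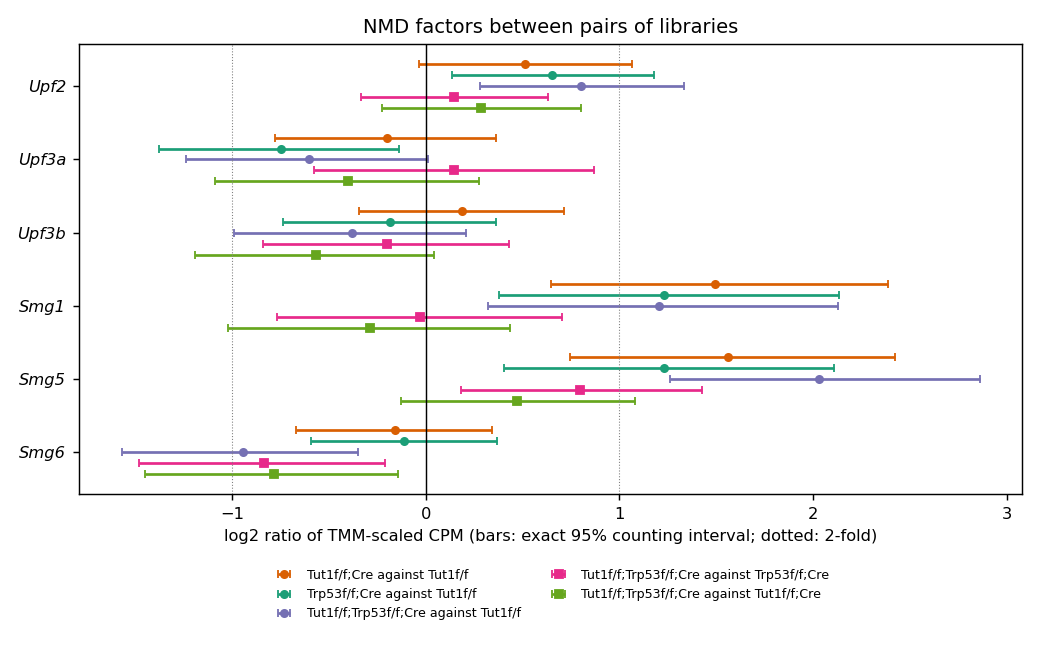
Log2 ratio of TMM-scaled CPM (horizontal axis) for each measured member in 5 pairs of libraries, with exact 95% counting intervals as bars and dotted lines at 2-fold. Smg1 and Smg5 lie to the right of the 2-fold line in the 3 comparisons with Tut1f/f (circles), and no member passes 2-fold in the 2 comparisons without it (squares).

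Comparisons without the Tut1f/f library called 0 of 6 members. Of all genes, 7.07% were called in the double-floxed library against Trp53f/f;Cre and 4.58% against Tut1f/f;Cre. The median log2 ratio of the 6 members was 0.35, 0.27 and 0.21 against Tut1f/f, beside 0.02, 0.02 and -0.02 over all tested genes. It was 0.06 and -0.34 in the 2 comparisons without Tut1f/f, beside -0.02 and 0.00 over all genes.

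To test the members by label across all 4 libraries, an additive edgeR quasi-likelihood model of Tut1 and Trp53 status was fitted with 1 residual degree of freedom. No member passed a false discovery rate (FDR) of 0.05 for either label, and 0 members had an unadjusted p under 0.05. Among all 9882 genes, Tut1 status gave 0 calls (0%) with 171 genes at an unadjusted p under 0.05, and Trp53 status gave 1 call (0.0101%) with 147. The called gene was Rpl3-ps1, a ribosomal protein pseudogene that is no member. The same counts of calls, 0 and 1, came from DESeq2, with 70 and 62 genes at an unadjusted p under 0.05. For Smg5 the edgeR log2 fold change was 1.16 by Tut1 status (SE 0.667, adjusted p = 1) and 0.83 by Trp53 status (SE 0.664, adjusted p = 0.9998). For Smg1 the edgeR change by Tut1 status was 0.71 (SE 0.709, adjusted p = 1). With Trp53 status as the only term and the Tut1f/f;Cre library left out, Smg5 was called (log2 fold change 1.66), as were 13.9% of all genes. That fit sets Tut1f/f alone, assumed to vary like the other libraries, against Trp53f/f;Cre and the double-floxed library, so the Trp53 label and Cre mRNA cannot be told apart in it. The matching edgeR fit of Tut1 status alone without Trp53f/f;Cre, again with Tut1f/f as its only library on 1 side, called 0 members and 0.0581% of all genes, with Smg5 at 1.81 (adjusted p = 0.0714) and Smg1 at 1.35 (adjusted p = 0.105). These were 2 of 6 members at an unadjusted p under 0.05, beside 28.7% of all genes. Trp53 itself, at -2.81 by Trp53 status, had an edgeR adjusted p of 0.0922.

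The Smg5 reads were mostly reads of the retained-intron isoform described above. Smg5-203 held 15 of 19, 36 of 42, 34 of 38 and 48 of 58 Smg5 reads. These are 78.9% (Wilson 95% interval 56.7 to 91.5), 85.7% (72.2 to 93.3), 89.5% (75.9 to 95.8) and 82.8% (71.1 to 90.4) of the gene, with no order beyond counting error. The other Smg5 entry was named after a read, with 4, 6, 4 and 10 reads. The spliced Smg5-201 took no reads here, so the higher Smg5 sums are mostly sums of an isoform that stops inside intron 12 and whose frame meets the stop codon printed above. Per library, Smg5-203 stood at 3.74, 12.0, 9.95 and 16.0 CPM, 3.20-fold (1.71 to 6.30), 2.66-fold (1.41 to 5.26) and 4.28-fold (2.36 to 8.23) above Tut1f/f.

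Smg1 was also partly measured through retained introns. Smg1-208 had 6, 9, 4 and 11 reads and Smg1-210 had 1, 10, 5 and 4 reads, and the remaining Smg1 reads lay on 2 read-named isoforms, the larger with 7, 12, 18 and 12 reads. Smg1-210 was highest in Tut1f/f;Cre, where its ratio to the 1 read of Tut1f/f was 13.3 with an interval of 1.90 to 579. Smg1-208 took 11.1% of Smg1 reads in Trp53f/f;Cre and 35.5% in the double-floxed library, a difference of 24.4 percentage points that did not pass correction over all isoforms (two-sided exact test of Fisher, p = 0.0212, FDR = 0.267). Upf3a-202, whose retained intron opens with a stop codon, had 7, 7, 4 and 3 reads, or 10.1, 15.6, 11.4 and 8.82% of Upf3a reads, against 53, 31, 28 and 27 reads of the protein-coding Upf3a-201.

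Summed over the 4 retained-intron isoforms of the members, 29, 62, 47 and 66 reads were counted (7.22, 20.6, 13.8 and 22.0 CPM). Against Tut1f/f the sums were 2.85-fold (1.81 to 4.60), 1.90-fold (1.17 to 3.14) and 3.05-fold (1.94 to 4.89) higher. Smg5-203 supplied 15, 36, 34 and 48 of these reads. Without Tut1f/f, the sum in the double-floxed library was 1.60 times that in Trp53f/f;Cre (1.08 to 2.38) and 1.07 times that in Tut1f/f;Cre (0.743 to 1.54). Retained-intron isoforms of all other genes, summed in the same way, stood at 1.56, 1.49 and 1.47 times Tut1f/f. In the double-floxed library they stood at 0.987 times Trp53f/f;Cre. The 2 protein-coding isoforms of the members, Upf3a-201 and Upf3b-201, went from 65 reads in Tut1f/f to 41, 29 and 27, at ratios of 0.842 (0.555 to 1.26), 0.524 (0.326 to 0.824) and 0.556 (0.341 to 0.883).

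Isoform usage, the percentage of the reads of a gene that fall on 1 isoform, was compared by a two-sided Fisher's exact test on the reads of 2 libraries, which says nothing of the spread between cultures. A difference was called at an FDR under 0.05 over all isoforms with at least 10 percentage points. Against Tut1f/f, 0 of 9 tested member isoforms were called in Tut1f/f;Cre (8.66% of all isoforms), 3 of 10 in Trp53f/f;Cre (9.12%) and 2 of 7 in the double-floxed library (6.49%). Without Tut1f/f, the double-floxed library gave 0 of 11 against Trp53f/f;Cre (1.24%) and 0 of 14 against Tut1f/f;Cre (0.15%). At 20 points, 0 of 9, 0 of 10 and 1 of 7 were called against Tut1f/f, beside 4.76, 5.07 and 3.22% of all isoforms. The differences lay in Smg6 and Upf3b. Smg1 (18 reads) and Smg5 (19 reads) were under the minimum of 20 gene reads in Tut1f/f, so their usage was not tested against it.

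Smg6-205 is an annotated processed transcript of 487 bases on chromosome 11 (plus strand) whose first exon, at chr11:75132435-75132744, is joined to exon 14 of the 19 exons of Smg6-201. Its junction is shown because it sets these reads apart from full-length Smg6, and it joins bases between 75132715 and 75139222.
Smg6-205, first exon joined to its second exon (capitals mark the bases on either side of the junction): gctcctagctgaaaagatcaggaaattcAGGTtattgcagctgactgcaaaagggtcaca

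The isoform had 1 of 85, 2 of 57, 11 of 67 and 8 of 33 Smg6 reads, which are 1.18% (Wilson 0.208 to 6.37), 3.51% (0.968 to 11.9), 16.4% (9.42 to 27.1) and 24.2% (12.8 to 41.0). It was higher in both libraries labelled with floxed Trp53. The difference between Trp53f/f;Cre and Tut1f/f was 15.2 points (Fisher's exact test, FDR = 0.00657). Between the double-floxed library and Tut1f/f;Cre, which leaves the control out, it was 20.7 points (exact p = 0.00427) and missed the correction (FDR = 0.254). All other Smg6 reads were on 1 read-named isoform with 84, 55, 56 and 25 reads, so the 2 isoforms are the same comparison read from either side. That isoform fell by 23.1 points in the double-floxed library against Tut1f/f (Fisher's exact test, FDR = 0.00285), a pair in which Smg6-205 had too few reads to be tested. Its level there was 0.398 times that of Tut1f/f (0.244 to 0.629), at 8.33 against 20.9 CPM, while the sum of both isoforms did not reach 2-fold.

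Upf3b-201, the annotated protein-coding isoform, had 12 of 68, 10 of 58, 1 of 51 and 0 of 39 Upf3b reads. These are 17.6% (Wilson 10.4 to 28.4), 17.2% (9.64 to 28.9), 1.96% (0.347 to 10.3) and 0% (0 to 8.97), where the floor of 3 counts in 39 reads is a share of 7.69%. It was near its floor in both libraries labelled with floxed Trp53. The difference from Tut1f/f was -15.7 points in Trp53f/f;Cre (Fisher's exact test, FDR = 0.0459) and -17.6 points in the double-floxed library (FDR = 0.0367). Between the double-floxed library and Tut1f/f;Cre it was -17.2 points (exact p = 0.00518) and missed the correction (FDR = 0.269). The other 9 Upf3b entries were 7 read-named isoforms and 2 variants of annotated transcripts, the largest with 20, 13, 9 and 14 reads. Across all 4 libraries, edgeR's test of differential usage by Tut1 status called 0 of 19 member isoforms and 0 of 25395 (0%) in all (202 at an unadjusted p under 0.05). By Trp53 status, a test added after the usage values were seen, it called 0 of 19 and 0 of 25395 (0%), with 157 at an unadjusted p under 0.05, among them Upf3b-201 (log2 usage change -3.69, edgeR adjusted p = 1) and Smg6-205 (3.08, adjusted p = 1).

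**Figure D4:**
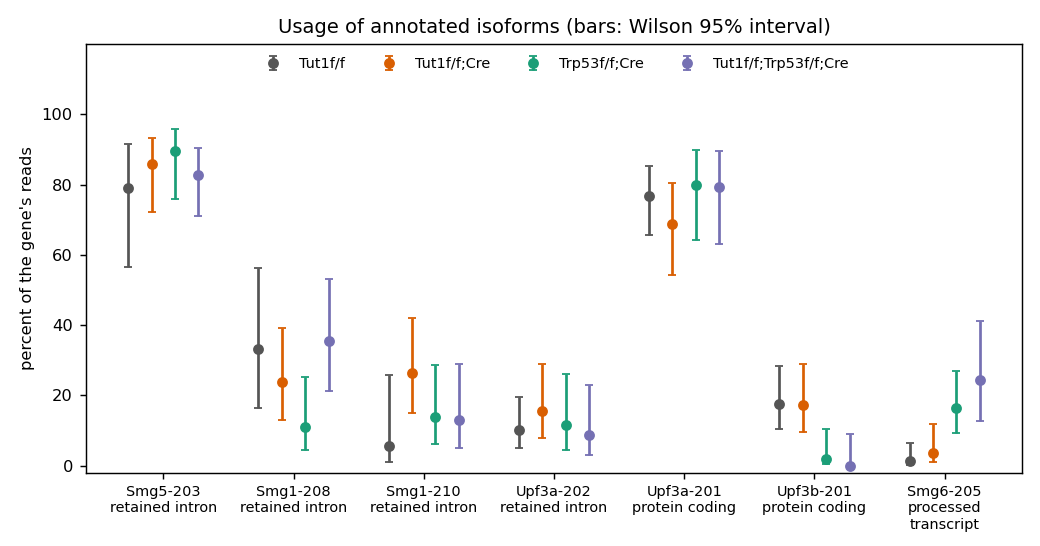
Percentage of a gene's reads (vertical axis) on each of the 7 annotated isoforms of the members in the 4 libraries, with Wilson 95% intervals as bars. Smg5-203 holds 78.9 to 89.5% of Smg5 reads in every library, while Upf3b-201 falls to 1.96% and 0%, and Smg6-205 stands at 16.4% and 24.2%, in Trp53f/f;Cre and the double-floxed library.

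Many member reads fell on isoforms named after a read. Of the 23 isoforms, 7 were annotated, 3 were variants of annotated transcripts and 13 were named after a read, and the read-named ones held 67.6, 64.0, 69.9 and 60.4% of member reads, beside 13.6, 16.3, 16.8 and 16.4% over all genes. Their structure was not analysed here. Their summed level was 53.1, 63.8, 61.8 and 54.0 CPM, and each ratio to Tut1f/f had an interval that included no change, at 1.20 (0.984 to 1.47), 1.16 (0.958 to 1.41) and 1.02 (0.825 to 1.25).

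Many entries name a position in steps of 1000 bases and no gene, and some of these steps lie wholly inside the spans of the members. Most such entries name a step with no annotated exon of the gene. The names give no transcript ends, so an entry may reach beyond its step, into exons or out of the gene. The Smg6 span, chr11:74925823-75164448, held 77 such entries with 102, 385, 402 and 314 reads (25.4, 128, 118 and 105 CPM), lowest in Tut1f/f. The level was 5.04-fold (4.04 to 6.33), 4.63-fold (3.72 to 5.81) and 4.12-fold (3.28 to 5.20) that of Tut1f/f, beside 21.2, 18.9, 19.6 and 11.0 CPM on named Smg6 isoforms. Of the 77 entries, 72 lay in steps with no annotated Smg6 exon and 5 lay in steps that another gene also reaches. The entries give no strand, so reads from either strand cannot be told apart. Over all 208527 entries that name a position, the level was 1.94, 1.86 and 1.63 times that of Tut1f/f, so the rise was common to such entries and the Smg6 ratios lay above it.

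In the Upf2 span (chr2:5951469-6056703), 25 position-named entries had 12, 68, 96 and 60 reads, 7.56-fold (4.06 to 15.3), 9.40-fold (5.14 to 18.8) and 6.69-fold (3.56 to 13.7) above Tut1f/f. In the Smg1 span (chr7:118131308-118243670), 28 entries had 61, 137, 150 and 120 reads, 3.00-fold (2.20 to 4.12), 2.89-fold (2.13 to 3.96) and 2.63-fold (1.92 to 3.64) above Tut1f/f. Upf3b gave no such difference, with 12 entries of 56, 51, 52 and 44 reads and ratios of 1.22 (0.815 to 1.81), 1.09 (0.733 to 1.62) and 1.05 (0.692 to 1.59). Upf3a (4, 14, 12 and 9 reads) and Smg5 (6, 10, 3 and 6 reads) had few. Without Tut1f/f, the ratio of the double-floxed library to Trp53f/f;Cre was 0.890 for Smg6 (0.765 to 1.03), 0.712 for Upf2 (0.507 to 0.993) and 0.911 for Smg1 (0.711 to 1.17), beside 0.875 over all position-named entries.

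At Upf1 (chr8:70331525-70353278, minus strand), no position-named entry named a step wholly within the gene. The step chr8:70331000-70331999, which covers its 3′ end, held 1 entry with 171, 136, 172 and 78 reads (42.6, 45.2, 50.3 and 26.0 CPM). How far this entry reaches beyond its step is not known. The last library was lowest, at 0.610 times Tut1f/f (0.461 to 0.802), 0.516 times Trp53f/f;Cre (0.390 to 0.679) and 0.575 times Tut1f/f;Cre (0.430 to 0.765). The 3′ ends of Cers1 and Gdf1, on the other strand, overlap Upf1 by 68 and 63 bases in the same step and had 0 reads on gene-naming entries, so these reads cannot be assigned to Upf1.

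**Figure D5:**
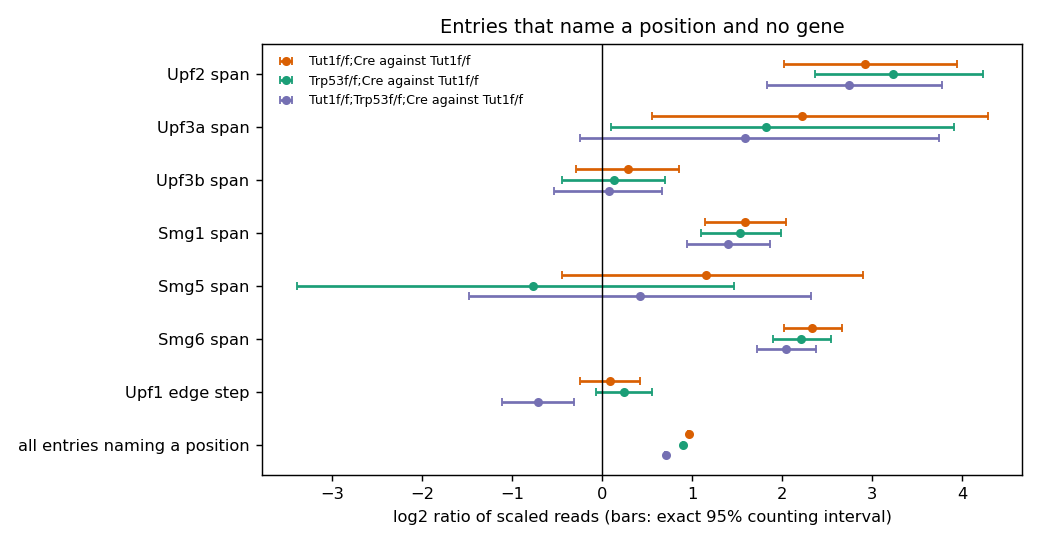
Log2 ratio of scaled reads to Tut1f/f (horizontal axis) for entries that name a position and no gene, summed over the span of each member, at the Upf1 edge step and over all such entries, with exact 95% counting intervals as bars. The Upf2, Upf3a, Smg1 and Smg6 spans lie above the values for all position-named entries, with wide intervals for Upf3a, and the Upf3b span lies near 0.

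Other genes of the pathway were taken from a list of 28, all of which were tested. Against Tut1f/f, 5 of 28 were called in Tut1f/f;Cre (3 higher and 2 lower), 6 in Trp53f/f;Cre (3 higher and 3 lower) and 2 in the double-floxed library (1 higher and 1 lower), with median log2 ratios of 0.08, 0.12 and 0.02. Over all genes 26, 27.5 and 20% were called. Xrn1, the exonuclease that degrades decapped mRNA, had 19, 44, 44 and 46 reads and was higher in all 3 comparisons, at log2 ratios of 1.63, 1.44 and 1.70. Gspt1 and Gspt2, which encode the release factor eRF3, were higher in Tut1f/f;Cre (1.23 and 1.22) and Trp53f/f;Cre (1.10 and 1.23). Ruvbl1 and Ruvbl2, ATPases that associate with SMG1, were lower in Tut1f/f;Cre (-1.54 and -1.72) and Trp53f/f;Cre (-1.42 and -1.80), and Ruvbl2 also in the double-floxed library (-1.05, and -0.91 without a call when no TMM factors were used). Eif4a3, the helicase of the exon junction complex, was lower in Trp53f/f;Cre (-1.28). No gene of the list was called in the 2 comparisons without Tut1f/f (medians 0.06 and 0.06). The remaining genes with the most reads included Sec13 (763, 414, 356 and 550 reads) and Magoh (643, 642, 660 and 626 reads), an exon junction complex subunit, neither of which was called.

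A list of 13 transcripts commonly described as lowered by NMD, all tested, held 2, 3 and 2 calls against Tut1f/f, with median log2 ratios of 0.14, 0.35 and 0.31. Over all genes 26, 27.5 and 20% were called, with medians of 0.02, 0.02 and -0.02. Tbl2 was lower in all 3 (-1.79, -1.35 and -1.37) and Atf4, a stress-response transcription factor with upstream reading frames, in Tut1f/f;Cre and Trp53f/f;Cre (-1.29 and -1.06, the latter -0.99 without a call when no TMM factors were used). Gadd45a, a stress gene whose mRNA NMD degrades, was higher in Trp53f/f;Cre (1.06), and Atf3 in the double-floxed library (1.68, from 5 to 12 reads). In the double-floxed library against Trp53f/f;Cre, Gadd45a was lower (-1.11, 13 against 32 reads) and was the 1 call in the comparisons without Tut1f/f. With no TMM factors, or with read-named isoforms left out, this pair held 2 calls of the list, 1 higher and 1 lower. Over all genes 7.19 and 7.40% were called in it at these settings. Gas5, a noncoding host of small nucleolar RNAs, had the most reads of the list (5217, 5659, 8248 and 5921) and was not called. With read-named isoforms left out, Gas5 was called higher in Trp53f/f;Cre against Tut1f/f, at 2.06-fold (1.98 to 2.15), beside 26.6% of all genes.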

How the data were processed

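Nanopore cDNA-PCR sequencing was performed on 4 libraries of total RNA, 1 per group. The deposited table holds counts per isoform as the authors made it, with no normalization. The submitters' processing notes name the build mm10. The aligner, isoform caller and strand setting of this table are not given in the sources used here. Of 255164 entries, 46637 name a gene and 208527 name a position. The latter (17.2 to 30.2% of reads) were left out of library sizes and gene tests.

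Isoform counts were summed per gene with symbols from GENCODE M21. Genes passing edgeR's filterByExpr (9882) were scaled by TMM. Pairs of libraries were compared by ratios with exact intervals, and isoform usage by Fisher's exact test with Benjamini-Hochberg adjustment, for isoforms with at least 10 reads in genes with at least 20 in each library. edgeR 4.0.16 (quasi-likelihood, diffSpliceDGE) and DESeq2 1.42.0 were run in R 4.3.3, and the rest in Python 3.11.15. The scripts were tested on simulated data. Alternatives were other scalings and folds, read-named isoforms left out, other filters, 1-term models and each library left out.

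Named isoforms had at least 10 reads in a library or a call, and named genes of the lists were called or among those with the most reads. Upf3a-202 and Rpl3-ps1 fall outside this rule and were chosen after their values were seen. Members and lists were chosen with earlier results of these data known, and both lists were written by hand. The values of 1 gene of the lists are not reported here. Nothing in the labels says that replicates exist, so p-values of the fits rest only on these libraries. Those of Fisher's exact test cover counting error only. Tut1 and Trp53 status followed the labels.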

Additional observations from a re-analysis of the deposited data

Results flagged for a closer look

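The following results were singled out because the ratio of Tut1f/f;Cre to Tut1f/f and the ratio of the double-floxed library (Tut1f/f;Trp53f/f;Cre) to Trp53f/f;Cre had opposite signs and differed by more than counting error. Of 9858 tested genes with reads in every library, 44.7% met the same rule, so it does not set these results apart. With 1 library per group the difference was not tested against replicates, and Tut1 reads in the last 2 libraries went against their labels. For Smg1 the log2 ratios were 1.49 and -0.03, a difference of 1.52 (95% counting interval 0.46 to 2.59). For Smg1-210 they were 3.74 and -0.13, a difference of 3.87 that rests on 1 read in Tut1f/f (0.35 to 7.39). For the entry at the Upf1 edge they were 0.09 and -0.95, a difference of 1.04 (0.53 to 1.54). For position-named entries they were 2.92 and -0.49 in the Upf2 span (difference 3.41), 2.22 and -0.23 in the Upf3a span (2.45), 1.58 and -0.13 in the Smg1 span (1.72) and 2.33 and -0.17 in the Smg6 span (2.50), beside 0.96 and -0.19 over all position-named entries (1.15). Except at the Upf1 edge, Tut1f/f was the lowest of the 4 libraries in each of these.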

How the results depend on the processing

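Smg1 and Smg5 remained the 2 members called with no TMM factors, with DESeq2 size factors and without isoforms under 3 reads. Removing the TMM factors moved the median log2 ratio of all genes to Tut1f/f by up to 0.15, to 0.12, and raised the higher share of calls in the double-floxed library from 999 of 1981 to 1285 of 2038. It ended the calls of Ruvbl2 in that library (-0.91) and Atf4 in Trp53f/f;Cre (-0.99). It added Nbas, for 7 pathway genes called in place of 6, and Nat9, for 5 responsive transcripts in place of 4. Over all genes 26.3, 27.8 and 20.6% were then called against Tut1f/f. With no fold required or a 1.5-fold threshold, 5 members were called in at least 1 pair: 4 in Trp53f/f;Cre and 4 in the double-floxed library against Tut1f/f, and in the latter 2 against Trp53f/f;Cre and 1 against Tut1f/f;Cre. Over all genes, 49 to 57.6% were then called against Tut1f/f with no fold required and 34.9 to 44.3% at 1.5-fold, beside 20 to 27.5% at 2-fold. Of the 28 other pathway genes, 22 and 14 were then called in place of 6, and of the 13 responsive transcripts 10 with no fold required in place of 4, while the shares of all genes rose as given. Leaving out read-named isoforms left too few reads to test Upf2, Smg6 and Xrn1, ended the Smg1 call in Trp53f/f;Cre (1.56-fold) and called Upf3b lower in both libraries labelled with floxed Trp53 against Tut1f/f (0.303 and 0.262 times) and in the double-floxed library against Tut1f/f;Cre (0.233 times, 1 call in place of 0), beside 26.6, 18.6 and 4.73% of all genes. It also called Gas5 and Nat9, for 6 responsive transcripts in place of 4. For isoform usage, 3 member isoforms were called and 1 at 20 points, where 3.22 to 5.07% of all isoforms were called against Tut1f/f. Without read-named isoforms the count was 0, but of the 3 isoforms 1 is itself read-named and the other 2 could then not be tested, and 1 to 2 member isoforms were tested per pair. Leaving out each library in turn, chosen after seeing the data, gave 0 to 2 member calls, 0 to 6 and 1 to 4 calls in the 2 lists and 0 to 3 isoforms. The lowest counts were without Tut1f/f, which removes 3 of the 5 pairs and leaves the 2 whose calls (Gadd45a alone) are given above. In edgeR models with 1 term and 1 library left out, 0 to 1 members were called by Trp53 status: without Tut1f/f;Cre, Smg5 was called (log2 fold change 1.66), along with 1474 of 10567 genes (13.9%), in a fit of Tut1f/f alone against the 2 libraries labelled with floxed Trp53, both of which received Cre mRNA.

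Changes of sign occurred in member effects that were not called. By Tut1 status, Upf3b turned from -0.0028 to 0.018 with 1 term, 0.011 with no expression filter and 0.028 without read-named isoforms. With 1 term and 1 library left out it ranged from -0.29 to 0.27 (0.11 without Tut1f/f), and Upf3a from -0.38 to 0.36. By Trp53 status, Smg1 with 1 library left out ranged from -0.27 to 1.20. Of the alternatives for single genes and isoforms, 226 were the same, 4 moved, 8 changed sign, 4 lost and 1 gained a call. For ratios of 2 libraries, the same meant within the main 95% interval and moved meant outside it. Gains and losses of calls were tallied only for fits and usage, so the lost Smg1 call given above is not among the 4. Of those for counts, 65 stayed within 1.5 times and 21 did not. Libraries of 18 to 85 reads per member limit what could be detected. No paired analysis was possible because each group is 1 library and the groups share the replicate number 1 only.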
